A study of Mus musculus with 23 samples.

Results

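Of the 11 mouse mesenteric artery arrays in a series of 23 vascular arrays, 3 carried abundant transcripts of the exocrine pancreas. They were chosen by the raw signal of the brightest probe for Try4, a trypsinogen gene, and a signal above 1000 put an array among the pancreas-rich ones. The other 8 mesenteric arrays stayed below. Gene expression had been measured on BeadChips in small branches of the superior mesenteric artery, in thoracic aorta and in abdominal aorta. The donors were male C57BL/6J mice, 12 weeks old at the start, that received Ang II at 490 ng/kg/min or the vehicle alone (Sham) from a subcutaneous minipump for 14 days. The mesenteric arteries gave 6 arrays for AngII and 5 for Sham, and each aortic compartment gave 3 for either treatment. RNA of 2 mice was pooled on each array, and the methods state that the vessels had been cleaned of adherent tissue. Mesenteric arrays are named here by treatment and by a letter in falling order of the Try4 signal, so the pancreas-rich arrays are AngII-a, AngII-b and Sham-a.

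Acinar cells of the exocrine pancreas synthesise digestive enzymes, many of them as inactive zymogens, and store them in granules for release into the gut. Their enzyme genes are activated by the PTF1 complex, which contains the basic helix-loop-helix factor PTF1A and RBPJL and binds an E-box next to a TC-box. Islets, which secrete insulin and glucagon, and ducts make up most of the remaining epithelium of the gland. The pancreas lies close to the stem of the superior mesenteric artery, and in the mouse its lobes spread into the mesentery.

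The promoters of the 3 marker genes Try4, Prss2 and Cpa1 are shown. That of the elastase gene Cela1 was added as an example with an E-box close to a TC-box. All the promoters cover 300 bases around the gene start, come from RefSeq (GRCm38.p6) and are written 5′ to 3′ on the gene's strand. Capitals mark the E-box CACCTG and the TC-box TTTCCC on either strand, which read CAGGTG and GGGAAA when the motif lies on the opposite strand. Try4 lay at chr6:41302022-41302321 (+), Prss2 at chr6:41521526-41521825 (+), Cpa1 at chr6:30638968-30639267 (+) and Cela1 at chr15:100687871-100688170 (-).
Try4: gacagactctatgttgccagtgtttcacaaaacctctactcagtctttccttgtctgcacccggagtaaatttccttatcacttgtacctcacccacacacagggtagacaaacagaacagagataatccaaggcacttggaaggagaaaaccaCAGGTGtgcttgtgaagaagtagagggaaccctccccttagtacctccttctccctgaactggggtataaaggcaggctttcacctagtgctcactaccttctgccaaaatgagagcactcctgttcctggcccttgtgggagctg
Prss2: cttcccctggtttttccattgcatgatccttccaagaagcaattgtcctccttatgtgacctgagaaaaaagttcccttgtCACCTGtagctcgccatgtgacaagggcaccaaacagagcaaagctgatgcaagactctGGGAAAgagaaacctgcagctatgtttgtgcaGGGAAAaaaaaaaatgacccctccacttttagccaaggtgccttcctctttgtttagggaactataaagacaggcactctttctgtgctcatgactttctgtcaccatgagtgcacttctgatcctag
Cpa1: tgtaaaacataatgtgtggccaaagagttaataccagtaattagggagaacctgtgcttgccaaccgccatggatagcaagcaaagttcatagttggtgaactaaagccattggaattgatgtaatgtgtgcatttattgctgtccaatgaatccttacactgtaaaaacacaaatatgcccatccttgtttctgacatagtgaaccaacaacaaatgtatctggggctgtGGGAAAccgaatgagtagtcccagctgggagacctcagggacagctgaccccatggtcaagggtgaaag
Cela1: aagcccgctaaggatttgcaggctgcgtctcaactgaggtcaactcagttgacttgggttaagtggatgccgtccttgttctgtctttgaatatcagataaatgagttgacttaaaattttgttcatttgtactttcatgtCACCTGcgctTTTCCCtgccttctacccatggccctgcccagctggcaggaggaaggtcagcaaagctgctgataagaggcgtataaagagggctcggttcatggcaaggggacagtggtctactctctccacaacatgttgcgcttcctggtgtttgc
The Cela1 promoter held an E-box followed after 4 bases by a TC-box, Prss2 held 1 E-box and 2 TC-boxes, Try4 held 1 E-box and Cpa1 held 1 TC-box. The promoters of Sycn, Pnliprp1 and Rnase1, which were also higher on the pancreas-rich arrays and are not shown, held neither motif. Of the 59 genes that were higher on the pancreas-rich arrays by the criterion given below, 45 had a promoter in the table, and 27 of these (60%) contained CACCTG, against 20% of all 27025 promoters of the same length. Among the acinar enzymes the E-box was found in 11 of 17 promoters (64.7%) and TTTCCC in 7 (41.2%). TTTCCC was present in 13 of the 45 (28.9%) and in 25.2% of all promoters, and both motifs were present in 8 of the 45 (17.8%) and in 4.88% of all promoters. The general E-box CANNTG was present in 84.4% of the 45 and in 72.1% of all promoters, and the TATA element TATAAA in 28.9% and 14.2%. The trypsinogen genes Try4, Prss2 and Prss3 and the kallikreins Klk1, Klk1b5, Klk1b26 and Klk1b27 all held CACCTG. Members of a gene family were counted as separate promoters, and their shared sequence was not allowed for. These are matches of letters and not binding sites.

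Try4 and Cpa1, which encodes carboxypeptidase A1, separated the 3 arrays by a wide gap. Raw Try4 signals, in arbitrary units of fluorescence after background subtraction, were 21058 on AngII-a, 19608 on Sham-a and 4803 on AngII-b. The remaining AngII arrays gave 237, 46.0, 45.9 and 33.3, and the remaining Sham arrays gave 240, 84.6, 62.9 and -3.63. The array just inside the threshold therefore read 4803 and the array just outside it 240. Raw Cpa1 signals were 17630, 16036 and 4946 on the same 3 arrays, from 3.75 to 323 with a median of 64.3 on the other 8, and from -1.61 to 5.58 on the 12 aortic arrays. A split by Cpa1 at the same threshold chose the same arrays.

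**Figure D1:**
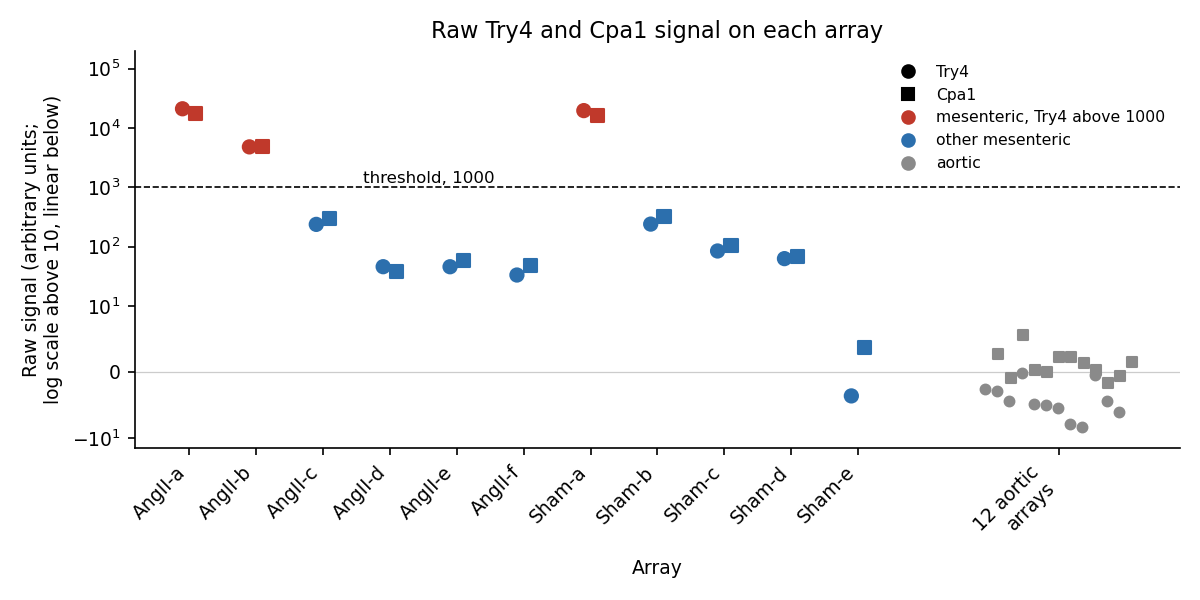
Raw signal (arbitrary units, log scale above 10 and linear below) of Try4 (circles) and Cpa1 (squares) on each mesenteric array and on the 12 aortic arrays, 1 point per array, with the threshold of 1000 dashed. The 3 pancreas-rich arrays lie between 4803 and 21058 for Try4, and all other mesenteric arrays lie at 240 or below.

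Measured enzyme and secretory protein genes of acinar cells together accounted for 1.55% to 4.20% of the summed raw signal on the pancreas-rich arrays. They accounted for 0.0207% to 0.177% on the other mesenteric arrays and for 0.00430% to 0.00853% on the aortic arrays. The number of transcripts detected (detection p under 0.01) was similar, with 18127 to 18493 on the pancreas-rich arrays and 17806 to 18657 on the others. Smooth muscle markers were strong on every mesenteric array: smooth muscle myosin Myh11 read 13.07, 13.31 and 13.13 on the log2 scale on AngII-a, AngII-b and Sham-a and from 13.04 to 13.69 on the other 8, so the groups overlapped. In bulk RNA, fewer cells of a type and less RNA per cell cannot be told apart.

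The pancreas-rich arrays were compared with the other mesenteric arrays by a linear fit on log2 values with treatment as a covariate. A gene was called when the 3 arrays did not overlap the other 8 and the fitted difference was 1 or more. Because Try4 chose the arrays, this comparison is a description and carries no test. Of 10955 genes, 59 were called higher (0.539%) and 3 lower (0.0274%), and 134 (1.22%) and 130 (1.19%) were separated in the respective direction at any size of difference. The median difference over all genes was -0.02. Of the 59 genes, 25 had entered the comparison only through the pancreas-rich arrays, being detected on fewer than 3 of the other 20 arrays of the series. The 59 included 21 acinar enzymes and 9 secretory or Reg proteins, and 20 were in none of the gene lists.

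Acinar enzymes were the largest group. Of 26 enzymes listed, 21 had a probe and passed the detection filter, 5 of them only through the pancreas-rich arrays, and 5 were not analysed here. All 21 were called higher, with a median difference of 6.84 and a range of 2.39 to 7.59 on the log2 scale. For these genes, the fitted differences had standard errors of 0.52 to 1.25, since the 3 arrays differed among themselves as did the other 8.

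Trypsinogens, the precursors of trypsin, were represented by Try4, Try5, Try10, Prss2 and Prss3. Log2 levels of Try4 were 14.04, 12.37 and 14.01 on AngII-a, AngII-b and Sham-a, and 4.27 to 7.91 (median 5.88) on the other 8. Levels of Prss2, anionic trypsinogen, were 12.86, 9.81 and 12.71 on the 3 arrays and 4.37 to 6.42 (median 4.55) on the other 8. Fitted differences were 7.26 ± 0.83 (SE) for Try4, 7.35 ± 0.77 for Try5, 7.22 ± 0.90 for Try10 and 6.97 ± 0.73 for Prss2. Prss3 was detected on none of the other 8 arrays and was at least 17.1-fold higher on the pancreas-rich arrays, where it read 9.86, 6.86 and 10.39. Gm5771 (7.70 ± 0.76), Gm5409 (7.58 ± 0.83) and Gm10334 (7.23 ± 0.70), which lie on chromosome 6 with these trypsinogen genes, were higher too. Trypsinogen genes are close in sequence, so probes of the family may read transcripts of several members and the assignment to single genes is uncertain.

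Chymotrypsinogens and elastases, which cleave after other residues than trypsin, were again lowest on AngII-b among the 3 arrays. Ctrb1, chymotrypsinogen B, read 14.11, 12.01 and 14.17 on AngII-a, AngII-b and Sham-a and 4.67 to 7.54 (median 5.62) on the other 8, a difference of 7.53 ± 0.75. Ctrl, a chymotrypsin-like protease, differed by 6.49 ± 0.87. Ctrc, chymotrypsin C, read 9.08, 6.33 and 9.75 and was detected on no other mesenteric array, so that it was at least 10.9-fold higher. Cela3b differed by 7.58 ± 0.82, Cela1 by 5.91 ± 0.69 and Cela2a by 5.53 ± 1.25. Cela2a was the enzyme with the smallest spread on the pancreas-rich arrays after Amy2a5, with 14.35, 14.32 and 14.33, and the widest on the other 8, from 4.59 to 11.08.

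Of the exopeptidases, carboxypeptidase A1 (Cpa1) differed by 6.84 ± 0.86. Carboxypeptidase B1 (Cpb1) differed by 5.99 ± 0.54, whereas a second probe of Cpb1 differed by 0.83 and was not called. Lipid-digesting proteins were higher by similar amounts: bile salt-activated lipase (Cel) differed by 7.36 ± 0.85, the phospholipase Pla2g1b by 7.59 ± 0.63, colipase (Clps) by 6.74 ± 1.03, and the lipase-related proteins Pnliprp1 and Pnliprp2 by 6.74 ± 0.88 and 7.19 ± 0.65. Pancreatic ribonuclease (Rnase1) differed by 6.71 ± 1.0 and tissue kallikrein (Klk1) by 6.95 ± 0.63. Further glandular kallikreins, Klk1b27 (7.13 ± 0.64), Klk1b26 (6.92 ± 0.63) and Klk1b5 (6.77 ± 0.65), were called as well, and their probes may also read shared sequence.

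Pancreatic amylase (Amy2a5) had the smallest difference of the 21 enzymes, 2.39 ± 0.52. Its brightest probe read 14.31, 14.31 and 14.32 on the pancreas-rich arrays and 10.80 to 13.14 (median 11.79) on the other 8, and it was detected on all 12 aortic arrays, at 7.72 to 9.42. Raw signals of that probe, 24858 on AngII-a, 21601 on AngII-b and 23065 on Sham-a, lay near the highest signal on these arrays (28884, 25403 and 26318). The 2 dimmer probes of Amy2a5 differed by 6.47 and 7.17.

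**Figure D2:**
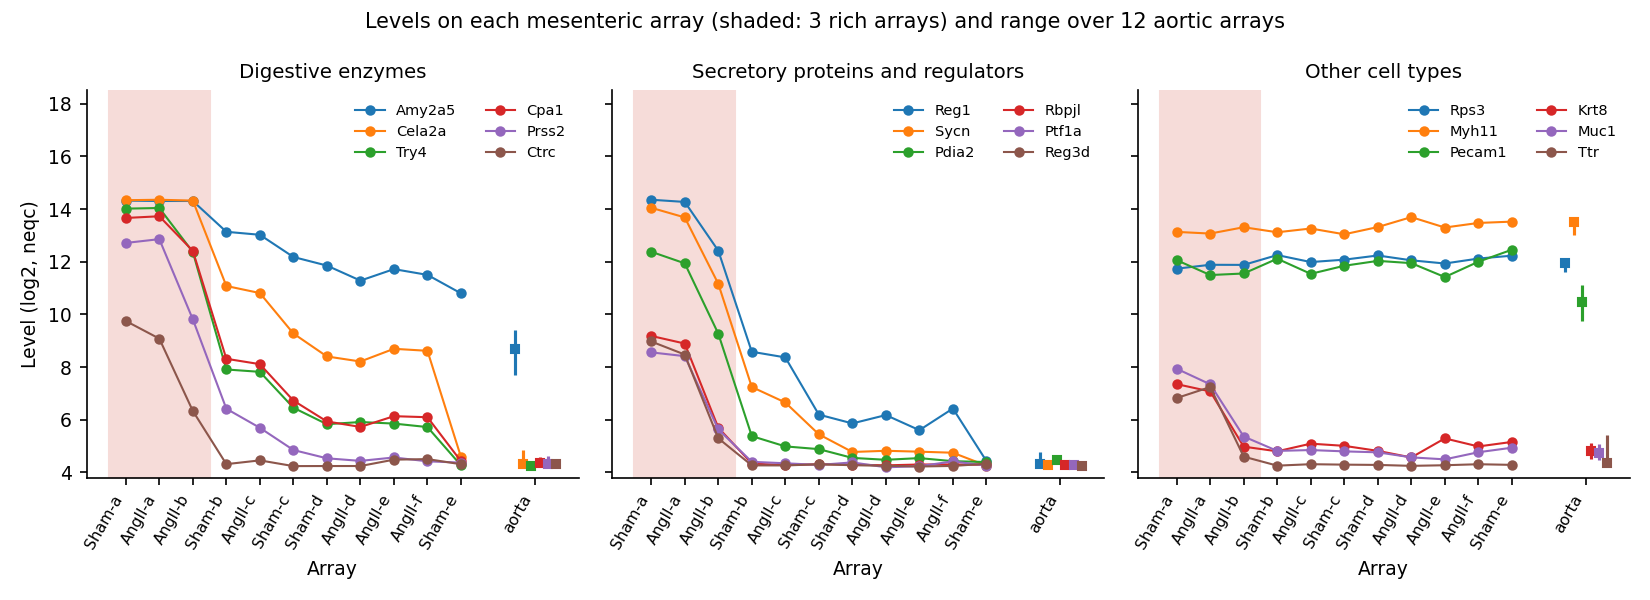
Log2 level (neqc) of 18 genes on each mesenteric array, with the 3 pancreas-rich arrays shaded, and their median (square) and range (bar) over the 12 aortic arrays. Amy2a5 and Cela2a read about 14.3 on all 3 shaded arrays, whereas Prss2, Pdia2 and Ptf1a fell from Sham-a and AngII-a to AngII-b, and Myh11 stayed between 13.04 and 13.69 on all mesenteric arrays.

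Granule and secreted proteins of acinar cells were as different as the enzymes. Of 15 such genes listed, 10 passed the filter, 3 of them only through the pancreas-rich arrays, and 9 were called, with a median difference of 6.88. Syncollin (Sycn), a protein of zymogen granules, was among the genes with the largest differences. Its levels were 13.68, 11.16 and 14.05 on AngII-a, AngII-b and Sham-a and 4.26 to 7.24 (median 4.81) on the other 8, a difference of 7.71 ± 0.84. The granule glycoprotein Gp2 differed by 7.57 ± 0.72, Reg1, a regenerating islet-derived protein made by acinar cells, by 7.22 ± 0.96, and the trefoil factor Tff2 by 7.03 ± 0.65. Zg16, a lectin of zymogen granules, differed by 6.87 ± 0.92, the trypsin inhibitor Spink1 by 6.42 ± 0.61, the zona pellucida-like protein Cuzd1 by 6.36 ± 0.60 and the mucin-like glycoprotein Dmbt1 by 6.89 ± 0.65. Reg3d, of the same family as Reg1, was detected on none of the other 8 arrays and was at least 6.22-fold higher.

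The genes of PTF1A and RBPJL, the factors of the acinar PTF1 complex named above, were both called. Ptf1a read 8.41, 5.64 and 8.56 on AngII-a, AngII-b and Sham-a and 4.20 to 4.42 on the other 8, none of which detected it, so that it was at least 6.03-fold higher. Rbpjl, the acinar partner of PTF1A, read 8.89, 5.70 and 9.18 and was at least 7.89-fold higher by the same measure. Neither was detected on an aortic array. Gata6, which is also active in vascular smooth muscle, differed by -0.05 ± 0.14, and the groups overlapped. Nr5a2, Bhlha15 (Mist1) and Foxa3 were detected on AngII-a and Sham-a alone, too few arrays to enter the comparison. Raw Bhlha15 signals were 195 and 273 on these 2 arrays, 6.94 on AngII-b and at most 3.00 on the other 8.

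Secretory cells fold their products in the endoplasmic reticulum, and genes of that compartment diverged. Pdia2, a protein disulphide isomerase of the pancreas, read 11.94, 9.27 and 12.38 on the pancreas-rich arrays and 4.39 to 5.38 on the other 8, a difference of 6.59 ± 0.57. Erp27 differed by 4.58 ± 0.63 and the pancreatic water channel Aqp12 was at least 7.11-fold higher. General folding and translocation genes differed little, with a median difference of 0.07 over 25 measured. None was called or separated, where over all genes only 0.539% were called higher and 1.22% separated upwards. Within that list the largest difference was 0.53 ± 0.13 for Edem1, which directs misfolded glycoproteins to degradation. The oxidoreductase Ero1b, outside the list, differed by 1.63 ± 0.34 and the peptidyl-prolyl isomerase Fkbp11 by 1.49 ± 0.38, and both were detected on all 23 arrays. Ero1b, Fkbp11 and the genes of the next 2 sentences were named after their values were seen. Hamp2, a hepcidin gene, read 9.27, 6.72 and 10.22 and was at least 13.9-fold higher, the amino acid transporter Slc38a5 at least 11.1-fold, and the neuropeptide Gal at least 6.89-fold. Rap1gap, a regulator of the small GTPase Rap1, differed by 2.45 ± 0.43.

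**Figure D3:**
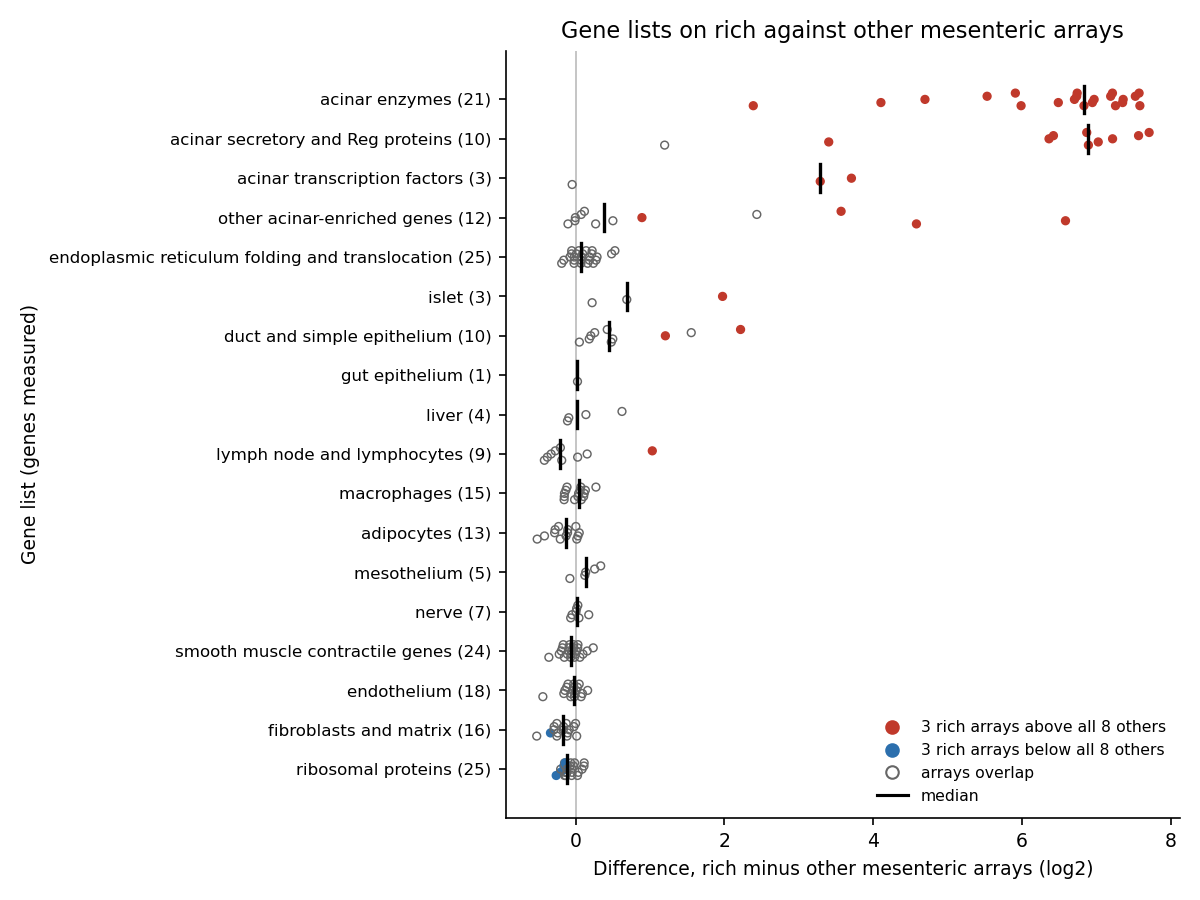
Fitted log2 difference between the 3 pancreas-rich and the other 8 mesenteric arrays for every measured member of 18 gene lists, with each list's median as a bar and filled points where the arrays do not overlap. The 21 acinar enzymes have a median of 6.84, against -0.06 for smooth muscle genes and 0.07 for folding genes of the endoplasmic reticulum.

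Genes of islets were nearly absent. The chip held no probe with the symbol Ins1, and Ins2, the other mouse insulin gene, gave raw signals of -1.31 on AngII-a, 39.5 on AngII-b, 0.613 on Sham-a and at most 1.86 on the other 8. AngII-b was thus the only array of the series on which Ins2 was detected. Gcg, Sst, Ppy and Iapp, which encode the remaining major islet hormones and amylin, were detected on no array. Of 28 islet genes listed, 3 passed the filter. Transthyretin (Ttr), which islets, liver and choroid plexus make, read 7.24, 4.60 and 6.82 on AngII-a, AngII-b and Sham-a and was at least 2.43-fold higher, though it was detected on only 2 of the 3 arrays, while the transcription factors Nkx6-1 (0.69 ± 0.34) and Isl1 (0.22 ± 0.29) overlapped between the groups.

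Of 18 duct and simple epithelial genes listed, 10 passed the filter, 2 were called and the other 8 overlapped between the groups. Over all genes 0.539% were called higher. The median difference was 0.45 over the 10. The mucin Muc1 read 7.35, 5.36 and 7.94 on AngII-a, AngII-b and Sham-a and 4.50 to 4.94 on the other 8, a difference of 2.22 ± 0.42, whereas a second probe of Muc1 differed by 1.59 and overlapped. Keratin 18 (Krt18), detected on 2 of the 3 arrays and on none of the other 8, was at least 1.67-fold higher, and its partner keratin 8 (Krt8) differed by 1.55 ± 0.45, with AngII-b at 4.98 inside the range of the other arrays. Krt18 was also detected on all 12 aortic arrays, at 5.11 to 6.43. Epcam and Cftr were detected on no mesenteric array.

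Of the markers of neighbouring organs, the gut genes Vil1, Fabp2 and Cdx2 and the liver gene Alb were not detected on any mesenteric array, and Cdx1 was detected on 2 of the 8 other arrays and on no pancreas-rich one. Apoa4, an apolipoprotein of the gut, was detected on AngII-a and Sham-a, at raw signals of 28.7 and 36.3, and on none of the other 8. The epithelial mucin Muc13 was called detected on AngII-b alone, at 14.0, but its raw signals on Sham-b and Sham-e were higher, at 15.8 and 14.9. Ambp, a plasma protein made by the liver, was detected on AngII-a and Sham-a and on none of the other 8, with a difference of 0.62 ± 0.20 and AngII-b (4.22) below the other 8 (4.23 to 4.34). The 4 measured liver genes had a median difference of 0.02 and a range of -0.11 to 0.62, with Ambp the largest. Lgals4, the only gut gene measured, differed by 0.02. The part of gut and liver in these signals was not tested. Of 9 lymphoid genes measured, 1 was called, where 0.539% of all genes were called higher. It was the B cell chemokine Cxcl13, with a difference of 1.03 ± 0.28. Cxcl13 read 7.04, 5.94 and 5.75 on AngII-a, AngII-b and Sham-a and at most 5.60 on the others. On the aortic arrays Cxcl13 read 4.23 to 7.83. The B cell receptor component Cd79b and the T cell genes Cd3e and Cd3g differed by -0.38, -0.21 and -0.42 and overlapped. Macrophage, adipocyte, mesothelial and nerve genes gave medians of 0.04, -0.13, 0.13 and 0.01. No member of these lists was separated, where 1.22% of all genes were separated upwards and 1.19% downwards.

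Vessel wall genes showed little difference. Medians were -0.06 for 24 smooth muscle contractile genes, -0.03 for 18 endothelial genes and -0.17 for 16 genes of fibroblasts and matrix, of which Col6a1 (-0.34 ± 0.09) was separated downwards. The endothelial adhesion molecule Pecam1 read 11.49, 11.55 and 12.06 on AngII-a, AngII-b and Sham-a and 11.42 to 12.46 on the other 8. Ribosomal protein genes had a median of -0.12, and 5 of 25 were separated downwards, against 1.19% of all genes. Among them was Rps3 (-0.26 ± 0.07), at 11.88, 11.88 and 11.74 against 11.93 to 12.25.

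The 3 genes called lower each rested on a single probe. Atp5b, the beta subunit of mitochondrial ATP synthase, read 11.92, 13.45 and 11.72 on AngII-a, AngII-b and Sham-a and 13.55 to 13.86 on the other 8, a difference of -1.42 ± 0.31. Tns2, a focal adhesion protein, differed by -1.44 ± 0.32 and Pkp4, a plakophilin of cell junctions, by -1.17 ± 0.24. A second probe of Tns2 differed by -0.12, and 4 other probes of Pkp4 by -0.05 to -0.27, none of them called. Without AngII-b, 10 genes were called lower.

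The 3 pancreas-rich arrays were not alike. AngII-b was the lowest of them for 57 of the 59 genes called higher and for 20 of the 21 enzymes, and Sham-a exceeded AngII-a for 48 of the 59. The gap between AngII-a and AngII-b had a median of 2.10 on the log2 scale and ranged from 0.00 to 3.19. By the level on AngII-a, the median gap was 1.43 for the 12 genes under 8, 2.78 for 11 genes from 8 to 10, 2.75 for 4 genes from 10 to 12, 2.49 for 20 genes from 12 to 14 and 1.53 for 12 genes over 14. Members of the Reg family were unequal. Reg2 gave raw signals of 714 on AngII-a and 201 on Sham-a but 7.96 on AngII-b, where it was not detected, and Reg3b gave 170, 115 and 10.8. Reg2 and Reg3b were chosen after their values were seen. The part of signal saturation in these gaps was not tested.

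The other 8 mesenteric arrays were not free of pancreatic transcripts. Of the 21 enzymes, 19 were detected on AngII-c and on Sham-b, 15 on each of AngII-d, AngII-e, AngII-f and Sham-d, 16 on Sham-c and 4 on Sham-e, against 2 or 3 on the aortic arrays. Cpa1 was detected on 7 of the 8. Over these 8 arrays the Cpa1 level followed the mean of 14 other enzymes with a Pearson r of 0.997 and a Spearman rho of 0.929, where Try4 and the 5 enzymes that passed only through the pancreas-rich arrays were left out. Without the 2 arrays farthest from the median Cpa1 level, r was 0.989. For 7 secretory and Reg proteins chosen in the same way r was 0.983 and rho 0.976. The other 2 acinar lists did not follow Cpa1 in this way. Acinar transcription factors gave r of -0.21, and other acinar-enriched genes gave 0.58, or -0.42 without the 2 farthest arrays. Smooth muscle, duct and islet genes gave r of -0.37, 0.24 and -0.19. The arrays share a chip type and a normalization, the 8 had been selected for low Try4, and these correlations are a description with no test. Ordering the 8 arrays by Cpa1 thus placed Sham-b and AngII-c first and Sham-e last.

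**Figure D4:**
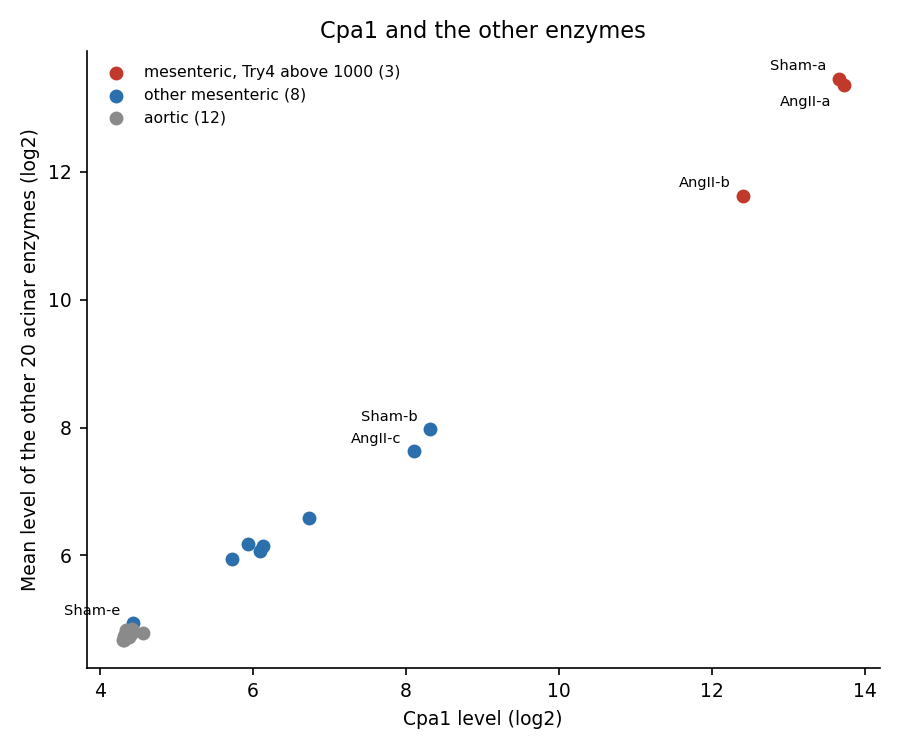
Cpa1 level against the mean level of the other 20 measured acinar enzymes (both log2), 1 point per array. The 3 pancreas-rich arrays lie at Cpa1 levels of 12.41 to 13.73, the other 8 spread from 4.43 to 8.32, and the 12 aortic arrays from 4.30 to 4.57.

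The mesenteric arrays were then compared with the 12 aortic arrays, which had no part in the threshold. Try4 and the 5 enzymes that had passed the filter only through the pancreas-rich arrays were left out of the counts, a choice made after seeing the data. With the 8 other arrays alone, 14 of the remaining 15 enzymes were higher than in aorta (adjusted p under 0.05, limma, Benjamini-Hochberg), with a median difference of 2.06 and none lower, where 26.7% of all genes were higher and 27.8% lower. With all 11 mesenteric arrays, which include those chosen by Try4, 15 of the 15 were higher and the median was 3.86, against 27.6% higher and 30.4% lower over all genes, and this count is a description. Of the 15 enzymes, only Cela1, Cpb1 and Amy2a5 were detected on any aortic array. The others passed the filter through mesenteric arrays alone, where they are high, so the count for the 8 other arrays is a description too. Between these 8 arrays and aorta, Amy2a5 differed by 3.23 ± 0.27 (SE, adjusted p = 1.89e-09, limma). This probe did not follow the other enzymes throughout. On Sham-e, where Cpa1 (4.43) lay within the aortic range (4.30 to 4.57), it still read 10.80, against at most 9.42 in aorta. What part of its signal came from the pancreas was not tested. Cela2a differed by 4.31 ± 0.52 and Cpa1 by 2.06 ± 0.34, and no test is given for them. Try4, Prss2, Prss3 and Ctrc, which were left out of these counts, differed by 1.98, 0.58, 0.00 and -0.01, and no test is given for them. Cpb1 (0.99 ± 0.44) did not pass with an adjusted p of 0.0631 by limma. Vessels of 1 mouse can occur in several pools, which the fit treated as independent arrays. All 18 endothelial and 12 of 13 adipocyte genes were also higher on the mesenteric arrays, and their part in the enzyme result was not tested.

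Pancreas-rich arrays occurred in both treatment groups, 2 of 6 AngII and 1 of 5 Sham arrays. AngII was compared with Sham on the 11 mesenteric arrays without regard to pancreatic transcripts, with the split as a covariate, and without the 3 pancreas-rich arrays. These fits share arrays and are not independent. Of 20585 transcripts, 70 passed on 11 arrays (0.340%, 59 higher and 11 lower in AngII), 65 with the covariate (0.316%, 50 higher and 15 lower) and 8 without the 3 arrays (0.0389%, all higher), at an adjusted p under 0.05 by limma. At an unadjusted p under 0.05 the counts were 3236, 3090 and 2477. With the acinar level in place of the split as the covariate, 88 passed by limma (0.427%, 70 higher and 18 lower), and 3205 at an unadjusted p under 0.05. The counts depended on single arrays: on 11 arrays the count was 14, 23, 27, 13 and 29 without AngII-a, AngII-b, AngII-c, AngII-e and AngII-f, 0, 2 and 11 without Sham-c, Sham-d and Sham-e, and 153 without Sham-a. With the covariate it was 19, 35, 21, 11 and 4 without AngII-a, AngII-b, AngII-c, AngII-e and AngII-f, 10, 7, 7 and 22 without Sham-a, Sham-c, Sham-d and Sham-e, and 127 without Sham-b. In the fit without the 3 arrays it was 0 after leaving out AngII-c, AngII-e, AngII-f, Sham-c, Sham-d or Sham-e, and 13 after leaving out Sham-b.

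None of the 21 acinar enzymes passed for AngII on 11 arrays (limma, adjusted p of 0.744 or more, and no unadjusted p under 0.05). None passed in the other 2 fits either. These use the split by Try4, with which the enzymes rise, so that result is a description. Of the 21, 5 had passed the detection filter only through the pancreas-rich arrays. The median standard error of the 21 enzymes was 1.73 on 11 arrays, 0.53 with the split as covariate and 0.57 without the 3 arrays. Over all genes the median was 0.09, 0.09 and 0.11. For the enzymes the effects were as follows. Their median AngII effect was 0.69, -0.17 and 0.05. On 11 arrays 20 of 21 effects were positive, and 2 of the 3 pancreas-rich arrays belonged to AngII.

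Fbxl22, an F-box protein of muscle, Afap1, an actin filament-associated protein, Sln (sarcolipin), which restrains the calcium pump of the sarcoplasmic reticulum, and Kdm5a, a histone demethylase, passed in all 3 fits. Sln read 8.33, 8.24, 8.64, 8.71, 8.65 and 8.59 on AngII-a to AngII-f and 7.68, 7.89, 7.84, 8.03 and 7.89 on Sham-a to Sham-e, with no overlap. Its AngII effect was 0.66 ± 0.10 on 11 arrays (adjusted p = 0.0212, limma), 0.70 ± 0.07 with the covariate (adjusted p = 0.00232) and 0.74 ± 0.09 without the 3 arrays (adjusted p = 0.0367). For Fbxl22 these effects were 0.75 ± 0.08, 0.74 ± 0.09 and 0.76 ± 0.11, and for Afap1 0.91 ± 0.12, 0.86 ± 0.09 and 0.87 ± 0.12. Among 24 alternatives to the fit on 11 arrays, Fbxl22 passed in 22, Afap1 in 21, Sln in 19 and Kdm5a in 14. The 24 include the split by Cpa1, which leaves this fit unchanged and so repeats its result.

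Other genes changed their side of the threshold with the handling of the 3 arrays. Fxyd3, a small regulator of the sodium pump expressed in epithelia, read 5.38, 5.38, 4.79, 5.09, 4.74 and 4.69 on AngII-a to AngII-f and 6.25, 5.42, 5.62, 5.50 and 5.57 on Sham-a to Sham-e. Within each treatment group the pancreas-rich arrays were the highest. Its AngII effect was -0.66 ± 0.17 on 11 arrays (adjusted p = 0.0870, limma), -0.74 ± 0.09 with the covariate (adjusted p = 0.00398) and -0.69 ± 0.11 without the 3 arrays (adjusted p = 0.0579). Herc1, a large ubiquitin ligase, passed in the first 2 fits and had an adjusted p of 0.0923 by limma without the 3 arrays, at effects of 0.76 ± 0.11, 0.74 ± 0.11 and 0.73 ± 0.13. Herc1 read 8.27, 8.33, 8.01, 8.13 and 8.05 on Sham-a to Sham-e, close to Fbxl22 at 8.27, 8.25, 8.10, 8.09 and 8.11. On the AngII arrays Herc1 read 8.53 to 9.17 and Fbxl22 8.64 to 9.06. Whether the probes of both genes read separate transcripts was not tested. The effect on Herc1 moved by less than its standard error. The number of arrays fell from 11 to 8, and its part in the change was not tested.

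Sphk1, sphingosine kinase 1, and Cnnm2, a magnesium transport protein, are named because the study singled them out. Sphk1 read 8.30, 7.94, 7.81, 7.86, 7.56 and 7.63 on AngII-a to AngII-f and 7.18, 7.47, 7.05, 7.32 and 7.04 on Sham-a to Sham-e, with no overlap. Its AngII effect was 0.64 ± 0.13 on 11 arrays (adjusted p = 0.0490, limma), 0.61 ± 0.12 with the covariate (adjusted p = 0.0497) and 0.49 ± 0.12 without the 3 arrays (adjusted p = 0.144). The highest Sphk1 levels of the AngII group were on AngII-a and AngII-b, which were pancreas-rich, whereas Sham-a lay inside the range of the other Sham arrays. Cnnm2 differed by 0.65 ± 0.13, 0.65 ± 0.13 and 0.66 ± 0.16 in the 3 fits, with adjusted p-values of 0.0486, 0.0547 and 0.147 by limma. With the acinar level as the covariate, Sphk1 differed by 0.61 ± 0.11 and Cnnm2 by 0.65 ± 0.13, with adjusted p-values of 0.0312 and 0.0486 by limma. Among 24 alternatives to the fit on 11 arrays, Sphk1 passed in 7 and Cnnm2 in 10. These alternatives include each array left out, and the split by Cpa1 that repeats the fit itself. Effects ranged from 0.40 to 0.70 for Sphk1 and from 0.55 to 0.72 for Cnnm2.

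**Figure D5:**
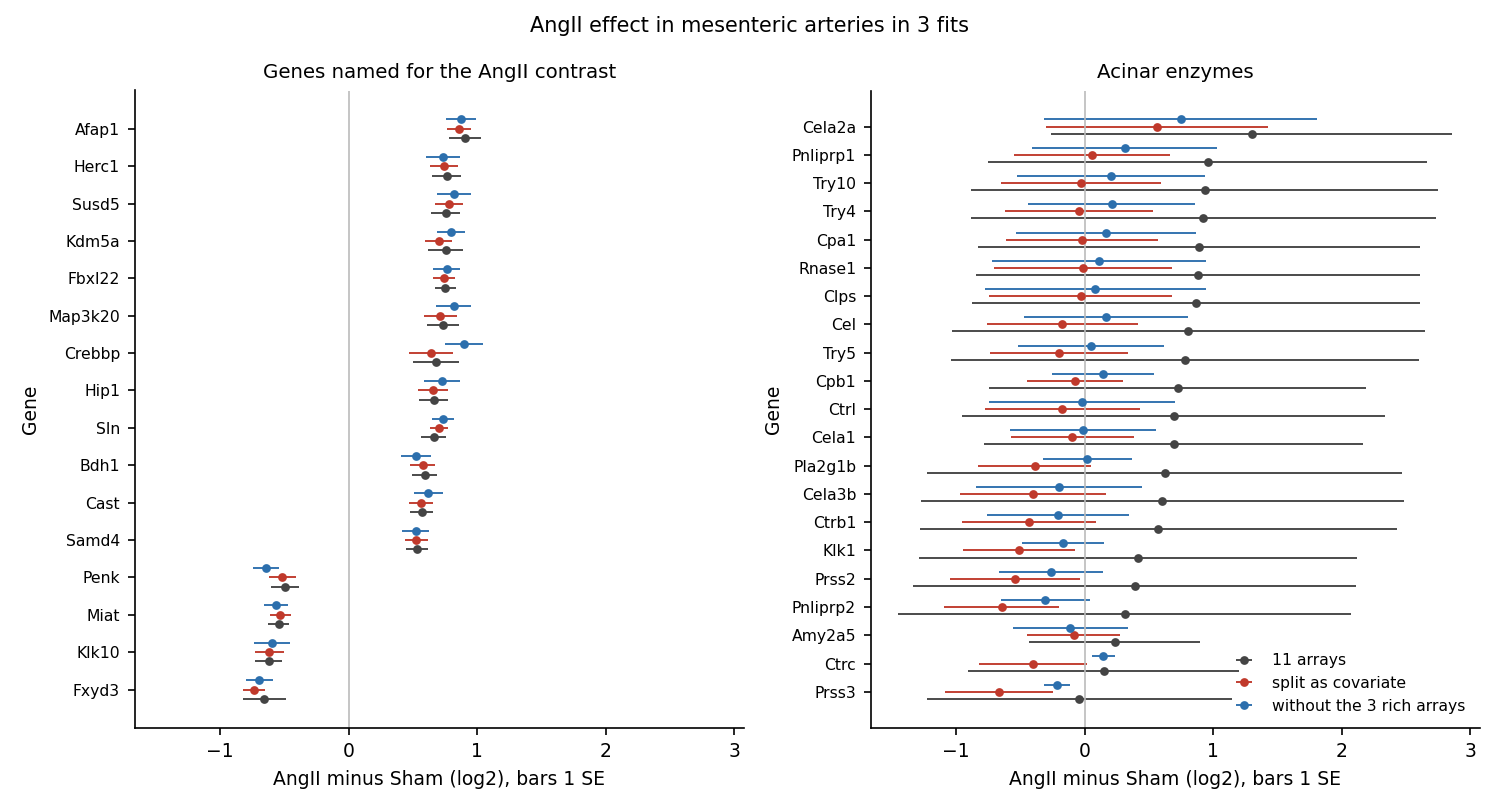
AngII minus Sham (log2, bars 1 SE) in mesenteric arteries in 3 fits, on 11 arrays, with the split as covariate and without the 3 pancreas-rich arrays, for 16 genes named for the AngII contrast (left) and 21 acinar enzymes (right). The bars of the enzymes are wide on 11 arrays, with a median SE of 1.73, against 0.53 and 0.57 in the other 2 fits.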

How the data were processed

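The authors scanned BeadChips and deposited raw intensity values, background-subtracted but not normalized. Each value has a deposited detection p-value against negative controls. The authors' log2 values had been normalized with lumi under R 3.0.2, and groups compared with limma, per the submitters' processing notes. Column names of the intensity table give vessel, treatment and a number that does not match the sample titles, so arrays were linked to groups only. Some of these numbers recur between vessels, and whether they mark the same mice is not given in the sources used here.

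All 23 arrays were converted with neqc (limma 3.58.1, R 4.3.3, offset 16). Of 45281 transcripts, 20585 were kept because 3 or more arrays detected them (p under 0.01), and each of 10955 genes was represented by its brightest probe. Probe symbols came from the platform annotation (34885 probes with 1 symbol, 18 with several, 10378 with none). Genes not detected on the other arrays were given a lower bound of the fold, from the mean of the 3 arrays and the lowest detected signal of each other array.

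Tests of AngII and of vessel were moderated limma tests, two-sided, adjusted by Benjamini-Hochberg over all transcripts. Correlations (Python 3.11.15) are given without a test, and the count of pancreas-rich arrays by treatment too, since Try4 had chosen the arrays. The fits were tested on simulated data. The number of arrays limits the precision, and p-values measure the spread between pools of 2 mice. Genes named were drawn mainly from Try4, Cpa1, Prss2, all measured enzymes, and the 20 largest positive and 10 largest negative differences among separated genes. Further sources were 2 to 4 members of each list with the largest differences, and for AngII the 10 smallest adjusted p-values in each fit. Up to 10 genes that passed in 1 AngII fit and not in another were added. The text names only some of these genes, which is a further selection. The members, lists and rules were chosen with earlier results of these data known. Alternatives covered background correction, normalization, offset, detection filter, split gene, array weights and each array left out.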

Additional observations from a re-analysis of the deposited data

Results flagged for a closer look

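Within the Sham and AngII groups of mesenteric arrays, the distance of the most extreme array from its nearest neighbour was divided by the range of the group, for 198 combinations of a gene, list or share with a group. In 64 the ratio passed Dixon's critical value at the 5% level, which chance alone passes in about 1 of 20 groups. Since the 3 arrays were chosen by Try4, and transcripts of acinar cells rise with it, these ratios describe the same split and are no further support for it.

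Sham-a was the highest Sham array with ratios of 0.755 for Prss2, 0.774 for Gp2, 0.778 for Tff2, 0.866 for Spink1, 0.901 for Cuzd1, 0.867 for Dmbt1, 0.967 for Ptf1a, 0.99 for Rbpjl, 0.877 for Pdia2, 0.865 for Erp27, 0.963 for Aqp12, 0.859 for Gnmt, 0.98 for Hamp2, 0.979 for Slc38a5, 0.937 for Gal, 0.987 for Reg3d, 0.921 for Rap1gap, 0.926 for Ero1b, 0.945 for Muc1, 0.86 for Krt8, 0.865 for Krt18, 0.985 for Ttr, 0.764 for Fxyd3, 0.942 for Prss3, 0.987 for Ctrc, 0.775 for Pnliprp2, 0.858 for Pla2g1b, 0.804 for Klk1, 0.942 for Cbs, 0.726 for Gm10334, 0.745 for Gm5771, 0.824 for Klk1b26, 0.873 for Klk1b27, 0.848 for Klk1b5, 0.94 for Mat1a and 0.904 for Ambp. It was the lowest Sham array with 0.891 for Atp5b, 0.879 for Tns2 and 0.908 for Pkp4.

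AngII-a was the highest AngII array with ratios of 0.658 for Ptf1a, 0.691 for Rbpjl, 0.672 for Aqp12, 0.816 for Gnmt, 0.748 for Reg3d, 0.664 for Rap1gap, 0.728 for Ero1b, 0.805 for Fkbp11, 0.696 for Muc1, 0.711 for Krt8, 0.65 for Krt18, 0.883 for Ttr, 0.802 for Cbs, 0.71 for Mat1a and 0.851 for Ambp. It was the lowest AngII array with 0.788 for Atp5b and 0.664 for Pkp4.

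The share of the raw signal taken by acinar genes gave 0.962 for Sham-a and 0.638 for AngII-a. Among mean levels of lists, Sham-a gave 0.764 for secretory and Reg proteins, 0.946 for acinar transcription factors, 0.947 for other acinar-enriched genes and 0.924 for duct and simple epithelium, and AngII-a gave 0.699 for acinar transcription factors. AngII-d was the lowest AngII array for the mean of the 4 measured liver genes, with 0.708.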

How the results depend on the processing

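The 59 genes called higher became 48 to 66 under other conversions, the authors' values, an offset of 50 and no filter, 9 when a transcript had to be detected on every mesenteric array, which removes genes present on the pancreas-rich arrays alone, and 56 (without Sham-a) to 85 (without AngII-b) with an array left out. Genes called lower numbered 2 to 10 with an array left out. The median enzyme difference ranged from 5.85 (authors' values) to 7.06 (cyclic loess), and from 6.48 to 7.26 with an array left out. Of all 21 enzymes, Try4 included, 19 were higher in the 11 mesenteric arrays than in aorta, 17 to 19 with an array left out, and 2 of the 2 that remained when detection on every array was required. Transcripts that passed for AngII on 11 arrays numbered 8 without the 3 pancreas-rich arrays, 142 with the authors' values, 43 with neqc on the mesenteric arrays alone, 126 with an offset of 50, 154 with detection on every mesenteric array and 19 with no filter, and 0 to 153 with an array left out. With the split as covariate they numbered 109 with the authors' values, 100 with an offset of 50, 116 with detection on every mesenteric array, 20 with no filter, 100 with a prior that follows the signal and 118 with array weights, and 4 to 127 with an array left out. Without the 3 arrays they numbered 1 with the authors' values, 17 with cyclic loess, 4 with an offset of 50 and 14 with array weights, and 0 to 13 with an array left out. The cause was not tested. Sample numbers in the labels do not state a pairing, and deviations of same-numbered AngII and Sham samples correlated at 0.86, -0.56, 0.51, 0.06 and 0.28. With the replicate number as a block, on the authors' values, 0 transcripts passed in each of the 3 AngII fits by limma, with 3101, 2246 and 1723 at an unadjusted p under 0.05. No enzyme passed for AngII under any of these alternatives by limma, with 0 to 2 enzymes at an unadjusted p under 0.05. In the fits that use the split by Try4 this is a description. No called value changed direction, and the smooth muscle median, which was not called, was 0.01 with cyclic loess. The signal over background limits genes near the detection limit, and each gene list was chosen with these data known.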

Other observations

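Mat1a, which makes S-adenosylmethionine, read 7.34, 5.18 and 7.49 on AngII-a, AngII-b and Sham-a and was at least 3.31-fold higher than on the other 8, and Cbs, which turns homocysteine into cystathionine, read 6.20, 4.69 and 6.78 and was at least 1.93-fold higher, though it was detected on 2 of the 3 arrays and a second probe of Cbs differed by 1.54 and overlapped. Gnmt, a glycine methyltransferase, read 7.36, 4.86 and 8.23, was likewise detected on 2 of the 3 arrays, and overlapped the others through AngII-b, with a difference of 2.44 ± 0.55. These 3 genes were chosen after their values were seen.

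Called genes lay on 15 chromosomes, 13 of 59 on chromosome 6 (2.25% of the 577 genes measured there) and 10 on chromosome 7 (1.17% of 852). The trypsinogen genes lie on chromosome 6 and the glandular kallikreins on chromosome 7. At the transcript level, 23 transcripts were detected on all 3 pancreas-rich arrays and on none of the other 8, and 19 of these were detected on no aortic array either.

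In the log2 values of the authors, where samples are numbered, the Try4 probe was highest in AngII sample 1 (14.50), Sham sample 1 (14.44) and AngII sample 2 (12.58), and read 6.84 to 8.50 in the other 8.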
